A study of Mus musculus with 90 samples.

Results

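This report follows 10 mouse genes that hold back mTORC1 or carry out its control of protein synthesis, in bulk liver RNA: Ddit4, Sesn1, Sesn2, Sesn3, Tsc1, Tsc2, Deptor, Eif4ebp1, Eif4ebp2 and Eif4ebp3. mTORC1 is the kinase complex that switches on protein and ribosome synthesis when insulin, energy and amino acids are plentiful. Its brakes lower that activity in fasting or stress, and the 4E-binding proteins, once they lose their mTORC1 phosphates, hold the cap-binding factor eIF4E away from messenger RNA. The members were chosen by name, with earlier results of these libraries in view, so their values are a description and not a test of the pathway. All 10 of 10 are among the 27654 gene IDs of the tables.

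The study asks how caloric restriction, the hepatocyte glucocorticoid receptor (GR, gene Nr3c1) and corticosterone shape the liver transcriptome. All mice were male C57BL/6J, aged 12 weeks at the start. In a diet experiment, wild-type livers were collected at ZT12 (12 h after lights on) from 3 control mice and from 3 mice given 40% fewer calories. In a corticosterone experiment, 3 wild-type mice received the hormone before ZT12 on each of 7 days and 3 received vehicle, all under night-restricted feeding. In a time series, mice lacking GR in hepatocytes through an albumin-driven Cre (GRLKO) and floxed mice without Cre, called wild type (WT) here, were killed every 4 h at 6 time points on either diet. Control mice of the series ate freely and then only at night in the final week, with food given at ZT12. Series groups hold 3 livers, and 4 for WT on control diet at ZT8, ZT12, ZT16 and ZT20 and for GRLKO on control diet at ZT8 and ZT12. The titles of the controls in the diet experiment carry the letters AL, while their treatment label reads night-restricted feeding. The titles of the controls in the corticosterone experiment carry the letters NR and do not name the vehicle. The study describes vehicle injections for that experiment, and these controls are called vehicle here. In the series the 2 diets come in separate count tables with differently numbered libraries, and the labels do not say whether they were processed together. Diet and count table cannot be told apart in the series, so genotypes are compared within a diet, and values across its diets are given for description. Bulk liver RNA holds every cell type of the organ: fewer hepatocytes and less RNA per hepatocyte cannot be told apart.

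Nr3c1 was read first, as a check of the genotype labels. At ZT12 on control diet its level was 83.7, 89.0, 76.1 and 88.9 CPM (counts scaled to library size by TMM) in WT livers and 18.8, 20.8, 20.3 and 25.1 CPM in GRLKO livers. Every WT liver was above every GRLKO liver there, and over the whole series the lowest WT value was 70.5 CPM and the highest GRLKO value 31.9 CPM. In the diet experiment Nr3c1 averaged 91.5 CPM in controls and 86.4 CPM on restriction. In the corticosterone experiment it averaged 73.6 CPM after vehicle and 70.5 CPM after hormone. Fkbp5, a GR target, averaged 64.3 ± 22.1 CPM in diet controls against 331 ± 40.7 CPM on restriction, and 38.1 ± 16.8 CPM after vehicle against 236 ± 51.0 CPM after corticosterone. Exocrine pancreas markers stood out in 2 of the 90 libraries. Their sum was 897 CPM in replicate 3 of restricted WT at ZT12 (Amy2a5 431 CPM) and 575 CPM in replicate 2 of control WT at ZT16 (Amy2a5 347 CPM), against at most 4.20 CPM elsewhere. Genotype comparisons of the members at these 2 hours are given below also without these livers, while time-of-day tests, genotype by diet tests, the diet contrast within the series and values of other genes include them.

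The members differ widely in abundance. Divided by the length of all exons, the controls of the diet experiment gave 86.8 ± 16.4 CPM per kb for Eif4ebp3 and 53.1 ± 0.934 CPM per kb for Eif4ebp2. Deptor followed with 30.1 ± 2.40 CPM per kb, Eif4ebp1 with 5.83 ± 0.268 and Sesn1 with 3.17 ± 0.112. Tsc1 gave 2.49 ± 0.105 CPM per kb, Sesn2 1.86 ± 0.0907, Ddit4 1.55 ± 0.159 and Tsc2 0.849 ± 0.308. Ddit4 therefore was the next to lowest of the 9 detected members in these controls, and on restriction it reached 78.6 ± 10.4 CPM per kb, close to the 87.3 ± 43.5 CPM per kb of Eif4ebp3 in the same livers. Sesn3, the sestrin described as a FoxO target, is listed at 0 in 90 of 90 libraries and could not be tested. Tsc2, the GTPase-activating subunit of the TSC complex, is listed at 0 in 35 of 90 libraries and never exceeded 17.2 CPM. These zeros are as listed in the tables, and how reads of both genes were assigned was not analysed here.

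Caloric restriction lowers insulin and amino acid supply for much of the day, the conditions in which mTORC1 is held off. With the meal given at the start of the active phase, livers taken at ZT12 come from the end of the daily fast. Glucocorticoid levels also peak at that hour. In WT livers at ZT12, 5 of 9 members tested were called (6 at an unadjusted p under 0.05, 5 by DESeq2), where 47.1% of all genes tested were called. Of all 13062 genes tested, 7122 had an unadjusted p under 0.05. A replicate block called 6 members.

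Ddit4 encodes REDD1, a short-lived stress protein that lets the TSC complex switch mTORC1 off. It read 2.46, 3.01 and 2.69 CPM in the 3 controls and 122, 133 and 158 CPM in the 3 restricted livers. All restricted livers lay far above all controls. Ddit4 rose with a log2 fold change of 5.66 (SE 0.14, adjusted p = 9.98e-06). Sesn2, a leucine-binding protein that restrains mTORC1 through GATOR2, read 6.41, 6.20 and 6.82 CPM in controls and 23.7, 21.3 and 20.3 CPM on restriction. Again the groups did not overlap, and the rise was 1.75 on the log2 scale (SE 0.09, adjusted p = 7.66e-05). Sesn1, its paralog, averaged 12.6 ± 0.444 CPM in controls and 15.4 ± 2.38 CPM on restriction, without overlap but above the threshold (log2 fold change 0.28, adjusted p = 0.0897).

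Tsc1, which stabilises the complex that turns off the GTPase Rheb, read 29.7, 28.0 and 30.5 CPM in controls and 37.0, 46.6 and 49.2 CPM on restriction. Restricted livers were higher in 3 of 3, and Tsc1 rose by 0.59 log2 units (SE 0.11, adjusted p = 0.00498). Tsc2 read 11.5, 6.02 and 6.93 CPM in controls and 17.2, 7.22 and 10.02 CPM on restriction, with overlapping groups (log2 fold change 0.49, adjusted p = 0.298). Deptor, a subunit of the mTOR complexes that blocks their kinase, averaged 267 ± 21.3 CPM in controls and 234 ± 16.4 CPM on restriction (log2 fold change −0.19, adjusted p = 0.115).

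Among the 4E-binding proteins, Eif4ebp2 was called higher and Eif4ebp1 lower under restriction, while Eif4ebp3 was not called. Eif4ebp2 read 312, 301 and 308 CPM in controls and 396, 409 and 423 CPM on restriction. Restricted livers were all higher, with a rise of 0.42 (SE 0.07, adjusted p = 0.00254). Eif4ebp1, the form studied most as an mTORC1 substrate, read 13.1, 13.2 and 12.1 CPM in controls and 10.4, 10.8 and 10.4 CPM on restriction, all lower on restriction. It fell by 0.28 (SE 0.08, adjusted p = 0.0247). That call was lost without control replicate 1 (adjusted p = 0.0706) or 2 (0.0831), and without restricted replicate 1 (0.0516), 2 (0.0614) or 3 (0.0695). Eif4ebp3 read 66.1, 75.9 and 51.7 CPM in controls and 102, 49.3 and 43.5 CPM on restriction. The restricted liver at 102 CPM was the highest of the 6 and the other 2 were the lowest, giving a log2 fold change of 0.01 (SE 0.32, adjusted p = 0.984). Without 1 library this value ran from −0.47 to 0.24.

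The WT livers of the series at ZT12 hold the same contrast, with each diet in its own count table, so that its values cannot be put down to diet alone. Ddit4 had a log2 fold change of 2.39 there (adjusted p = 0.0056), a smaller value than in the diet experiment. Its control level was also higher: 11.3 CPM in the series and 12.5 CPM after vehicle in the corticosterone experiment, against 2.72 CPM in the diet experiment. Sesn2 had 1.22 in the series (adjusted p = 0.00367). Eif4ebp1 had −1.01 (adjusted p = 0.0014), further from 0 than in the diet experiment. Eif4ebp3 had a log2 fold change of 0.98 (adjusted p = 0.073). The reason for these gaps between experiments was not tested.

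Around the members, 25 of 51 other mTORC1 pathway genes tested were called in the diet experiment, 11 higher and 14 lower, where 47.1% of all genes tested were called. Their median log2 fold change was −0.06, against 0.00 for all genes. Eef2k, the kinase that slows translation elongation, fell from 14.0 to 4.62 CPM (log2 fold change −1.60, adjusted p = 0.000341). Castor1, the arginine sensor of the pathway, fell by 1.21 on the log2 scale (adjusted p = 0.00141), while Ddit4l, the paralog of Ddit4, rose by 1.33 (adjusted p = 0.00239). Of 9 amino acid stress targets of ATF4 tested, 3 were called, all higher, among them Vldlr (log2 fold change 2.64, adjusted p = 0.000677) and Ddit3 (1.20, adjusted p = 0.000837). Hepatocyte markers were called in 3 of 6 genes higher and 1 lower, with a summed level of 89806 CPM in controls and 155078 CPM on restriction. Endothelial markers were higher in 4 of 6 genes (139 to 203 CPM summed) and cholangiocyte markers in 2 of 4. Stellate markers had 2 higher and 2 lower, and Kupffer, lymphocyte, erythrocyte and adipocyte markers each had 1 lower. Only 1 of 6 adipocyte and 2 of 6 lymphocyte markers could be tested. Whether cell composition carries any member's change was not tested.

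**Figure D1:**
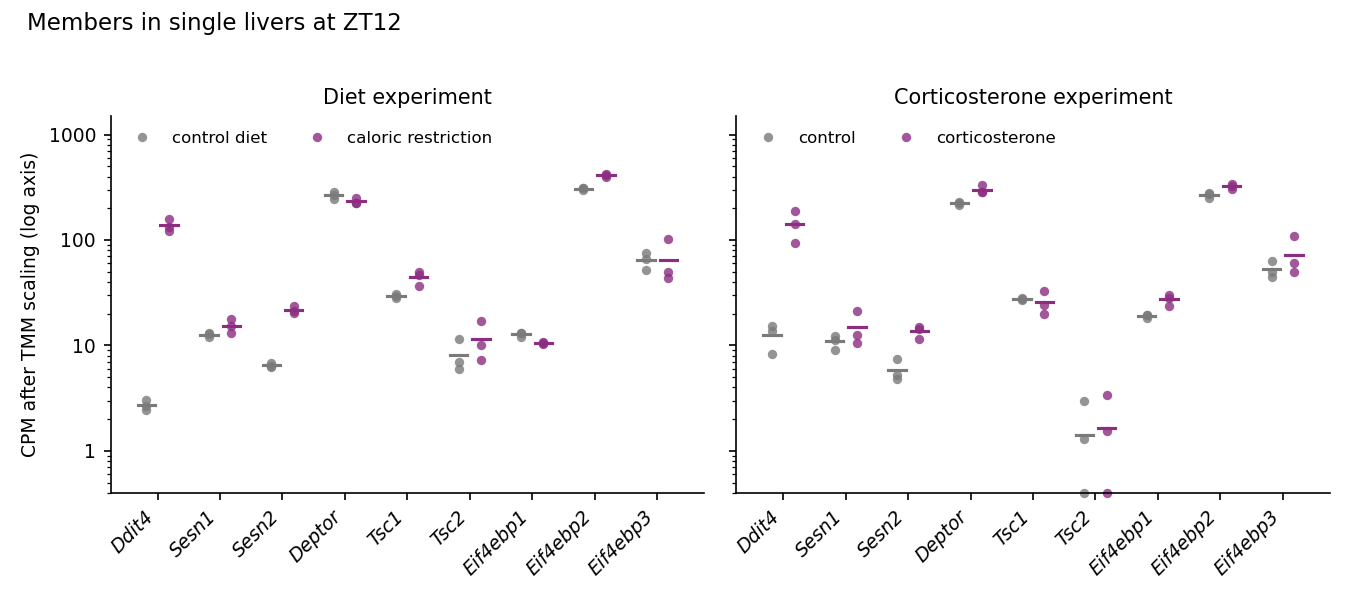
The 9 detected members in single livers at ZT12 in the diet and corticosterone experiments, one panel per experiment, CPM on a log axis, with bars at group means and a value of 0 drawn at the lower edge. Ddit4 goes from a mean of 2.72 to 138 CPM on restriction and from 12.5 to 141 CPM with corticosterone, while Eif4ebp3 groups overlap in both experiments.

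Corticosterone given before ZT12 raises the hormone without a cut in food. Ddit4 is a known GR target in several tissues, and its protein REDD1 takes part in the muscle response to glucocorticoids. Of 9 members tested, 4 were called (5 at an unadjusted p under 0.05, 4 by DESeq2), where 8.11% of all genes tested were called. All 4 were higher, where 4.47% of all genes tested were called higher. An unadjusted p under 0.05 was found for 2997 of all 11523 genes tested.

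Ddit4 read 13.8, 8.21 and 15.4 CPM after vehicle and 141, 189 and 94.0 CPM after corticosterone. All treated livers were well above all controls, and Ddit4 rose by 3.51 (SE 0.33, adjusted p = 0.00223). Sesn2 read 7.39, 4.85 and 5.29 CPM after vehicle and 14.4, 14.8 and 11.6 CPM after hormone, higher in 3 of 3 treated livers. It rose by 1.22 (SE 0.20, adjusted p = 0.0148). The Sesn2 call was lost without control replicate 2 (adjusted p = 0.0669) or 3 (0.0539) and without treated replicate 1 (0.0503). Deptor read 226, 214 and 231 CPM after vehicle and 286, 285 and 331 CPM after hormone, again without overlap. Its rise of 0.43 (SE 0.10, adjusted p = 0.0394) was lost without control replicate 1 (0.116), 2 (0.158) or 3 (0.0881), without treated replicate 1 (0.0812) or 3 (0.111), and also with no expression filter (0.0509) and with a replicate block (0.0842).

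Eif4ebp1 read 19.2, 18.2 and 19.6 CPM after vehicle and 28.4, 23.6 and 29.9 CPM after corticosterone. It was higher in 3 of 3 treated livers and rose by 0.52 (SE 0.12, adjusted p = 0.0389), the reverse of its direction under restriction. Without control replicate 1 (adjusted p = 0.111), 2 (0.148) or 3 (0.0919), or treated replicate 1 (0.102) or 3 (0.118), the call was lost, as it was with a replicate block (0.0627). Eif4ebp2 averaged 267 ± 15.5 CPM after vehicle and 323 ± 16 CPM after hormone, without overlap (log2 fold change 0.27, adjusted p = 0.11). Eif4ebp3 read 50.1, 63.8 and 45.03 CPM after vehicle and 49.2, 108 and 60.7 CPM after hormone, with overlapping groups (0.46, adjusted p = 0.372). Without 1 library its log2 fold change ran from 0.05 to 0.67. Sesn1 averaged 10.9 and 14.8 CPM (0.45, adjusted p = 0.354) and Tsc1 27.6 and 25.7 CPM (−0.10, adjusted p = 0.766). Tsc2 had a log2 fold change of 0.21 (adjusted p = 0.947).

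With the hormone 5 of 49 other pathway genes tested were called, 4 higher and 1 lower, where 8.11% of all genes tested were called. Ulk1, the autophagy kinase that mTORC1 holds inactive, rose from 45.4 to 163 CPM (log2 fold change 1.85, adjusted p = 0.00128). Flcn, which helps mTORC1 to the lysosome, rose by 0.83 (adjusted p = 0.0149), and Eif4b, a helper of the eIF4A helicase, by 0.56 (adjusted p = 0.0268). Of 7 ATF4 targets tested, 2 were higher and 1 was lower. The 2 higher ones were Chac1 (0.733 to 11.1 CPM, log2 fold change 3.89, adjusted p = 0.00219) and Trib3 (1.67, adjusted p = 0.0122). Hepatocyte and Kupffer markers each had 1 gene higher, and endothelial, stellate and cholangiocyte markers each 1 gene lower. The median log2 fold change of the cholangiocyte markers was 0.343.

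Loss of GR in hepatocytes asks whether the receptor is needed for a member's level, hour by hour. Glucocorticoid secretion peaks around ZT12, at the end of the resting phase. In restricted mice 1 of 8 members tested was called at ZT0 (0.502% of all genes tested called), 1 of 8 at ZT4 (0.69%) and 1 of 9 at ZT8 (2.55%). At ZT12 it was 2 of 8 (15.3%), at ZT16 2 of 8 (4.54%) and at ZT20 1 of 8 (1.47%). Each of these edgeR calls belonged to Eif4ebp3 or Ddit4 and was lower in GRLKO. DESeq2 called 1, 1, 2, 3, 2 and 1 members at the 6 hours, adding Sesn1 at ZT8 and Deptor at ZT12.

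Ddit4 in restricted livers at ZT12 read 31.5, 86.1 and 61.2 CPM in WT and 8.48, 6.27 and 9.18 CPM in GRLKO. The lowest WT liver was above the highest GRLKO liver, and WT livers spread widely. GRLKO livers were lower by 2.90 log2 units (SE 0.36, adjusted p = 0.00291). Without WT replicate 3, the liver with pancreas markers, the log2 fold change was −2.88 (adjusted p = 0.0114). At ZT16 Ddit4 read 20.05, 12.5 and 12.0 CPM in WT and 6.40, 6.32 and 5.36 CPM in GRLKO. It was lower in all 3 GRLKO livers (log2 fold change −1.29, SE 0.22, adjusted p = 0.0195), and the call was lost without GRLKO replicate 1 (0.0573), 2 (0.063) or 3 (0.0789). Elsewhere in the day the 2 genotypes had Ddit4 log2 fold changes of −0.57 at ZT0 (adjusted p = 0.475), −0.01 at ZT4, −0.33 at ZT8 and −0.60 at ZT20 (adjusted p = 0.346). None of those 4 passed edgeR.

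Eif4ebp3, the least studied 4E-binding protein, had the widest gaps between genotypes among the members tested. At ZT12 on restriction it read 117, 162 and 138 CPM in WT and 5.19, 5.66 and 4.22 CPM in GRLKO. The lowest WT liver was far above the highest GRLKO liver, and the log2 fold change was −4.79 (SE 0.17, adjusted p = 5.06e-05). Leaving out WT replicate 3 with its pancreas markers gave −4.80 (adjusted p = 0.000692). At ZT8 WT read 35.4, 68.8 and 39.3 CPM and GRLKO 3.67, 2.06 and 4.00 CPM, a gap of −3.88 (SE 0.34, adjusted p = 0.00326). Values at ZT16 were 50.2, 59.9 and 77.6 CPM against 2.08, 5.08 and 3.49 CPM, and the log2 fold change was −4.13 (SE 0.29, adjusted p = 0.000697). All WT livers were above all GRLKO livers at both hours.

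Lower WT levels of Eif4ebp3 on restriction were seen at ZT20, ZT0 and ZT4. At ZT4 it read 16.4, 16.6 and 14.0 CPM in WT and 3.03, 1.86 and 2.17 CPM in GRLKO (log2 fold change −2.72, SE 0.20, adjusted p = 0.00294). At ZT20 the values were 25.4, 24.7 and 22.4 CPM against 4.52, 3.30 and 2.41 CPM (−2.79, SE 0.21, adjusted p = 0.0036). WT livers were the higher ones in each case. At ZT0 WT read 10.5, 21.6 and 13.4 CPM and GRLKO 3.58, 2.16 and 3.21 CPM (−2.33, SE 0.32, adjusted p = 0.0351), without overlap. This ZT0 call was lost in each fit that left out a library: WT replicate 1 (0.0576), 2 (0.0912) or 3 (0.109), or GRLKO replicate 1 (0.051), 2 (0.147) or 3 (0.121). A replicate block gave 0.161.

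With each hour fitted alone, edgeR called none of the remaining members between genotypes on restriction. With all libraries of the diet in 1 fit it called 2 members at ZT8 and 3 at ZT12, against 1 and 2. Over all genes that fit called 724 at ZT8 and 2805 at ZT12, against 308 and 1795. Tsc2 could be tested only at ZT8 (log2 fold change −1.29, adjusted p = 0.674). Sesn1 at ZT8 read 22.4, 25.4 and 23.1 CPM in WT and 16.3, 19.1 and 16.8 CPM in GRLKO. WT livers were all higher, with a log2 fold change of −0.44 that edgeR did not call (adjusted p = 0.062, and 0.0398 by DESeq2). Sesn2 at ZT12, its hour of highest level, read 18.3, 22.5 and 17.9 CPM in WT and 14.8, 18.8 and 16.03 CPM in GRLKO, with overlap (−0.24, adjusted p = 0.269). Deptor at ZT12 averaged 237 ± 35.9 CPM in WT and 298 ± 22.8 CPM in GRLKO, without overlap (0.33, adjusted p = 0.12 by edgeR and 0.0486 by DESeq2). Tsc1 at ZT12 averaged 48.3 ± 6.85 and 53.4 ± 2.90 CPM (0.14, adjusted p = 0.451). Eif4ebp2 averaged 412 ± 12.8 and 413 ± 14.9 CPM there (0.00, adjusted p = 0.991), and Eif4ebp1 10.04 ± 0.917 and 8.85 ± 2.45 CPM (−0.18, adjusted p = 0.604). Without the WT liver with pancreas markers the ZT12 log2 fold changes were −0.31 for Sesn2, 0.33 for Deptor, 0.11 for Tsc1, 0.02 for Eif4ebp2, −0.18 for Eif4ebp1 and −0.14 for Sesn1, and edgeR called none of these 6 (adjusted p from 0.24 to 0.91).

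In the same comparison at ZT12, 6 of 51 other pathway genes tested were called, 3 higher and 3 lower in GRLKO, where 15.3% of all genes tested were called. Eef2k rose from 5.62 to 15.1 CPM (log2 fold change 1.42, adjusted p = 0.00338), and Fnip2, a folliculin partner, rose by 0.88 (adjusted p = 0.0195). Eif4e, the cap-binding protein that Eif4ebp3 can hold, fell by 0.57 (adjusted p = 0.00933), and the GATOR1 subunit Nprl3 fell by 0.46 (adjusted p = 0.026). At the other 5 hours edgeR called 0 of 50 to 51 tested, with 4 to 9 at an unadjusted p under 0.05 and 1 called by DESeq2, at ZT4. Of all 11905 to 12140 genes tested at those hours, 1606 to 2340 had an unadjusted p under 0.05. Of 8 ATF4 targets tested at ZT12, 1 was called: Vldlr rose from 7.18 to 55.4 CPM in GRLKO (log2 fold change 2.93, adjusted p = 0.000528). Vldlr was also higher at ZT4 (1.67, adjusted p = 0.00431) and ZT8 (1.77, adjusted p = 0.0152), and Atf5 was lower at ZT20 (−0.62, adjusted p = 0.0373). Hepatocyte markers were lower in 4 of 6 genes in GRLKO at ZT12 (163399 ± 3044 against 119564 ± 8679 CPM summed), with Alb the most abundant. Kupffer and myeloid markers were higher in 3 of 7 genes (60.2 ± 16.1 against 134 ± 29.4 CPM), with Clec4f the most abundant. Endothelial and erythrocyte markers each had 1 gene higher at ZT12 and cholangiocyte markers 1 lower. At ZT8 and at ZT16 hepatocyte markers were lower in 1 of 6 genes and erythrocyte markers higher in 1 of 5, and at ZT20 stellate markers were higher in 1 of 6. The median log2 fold change of the 5 erythrocyte markers was −0.316 at ZT8 and −0.214 at ZT16. That of the cholangiocyte markers at ZT12 was 0.266. Whether composition contributes to the Ddit4 and Eif4ebp3 values was not tested.

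On control diet, by edgeR, 0 of 9 were called at ZT0 (2 at an unadjusted p under 0.05, 1 by DESeq2; 0.536% of all genes tested called) and 0 of 9 at ZT4 (1 and 1; 0.195%). The count was 1 of 9 at ZT8 (1.43% of all genes), at ZT12 (2.08%), at ZT16 (1.98%) and at ZT20 (0.42%). The member called by edgeR was Eif4ebp3 each time. DESeq2 called 1, 2, 2 and 3 members at these 4 hours, adding Ddit4 at ZT12, ZT16 and ZT20 and Tsc1 at ZT20. Among all genes tested, an unadjusted p was under 0.05 for 1798 of 11749 at ZT0 and 1152 of 11817 at ZT4.

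Eif4ebp3 at ZT12 on control diet read 49.9, 47.1, 48.5 and 134 CPM in WT and 6.08, 5.54, 4.52 and 4.96 CPM in GRLKO. A single WT liver stood far above the other 3, and all 4 were above every GRLKO liver (log2 fold change −3.72, SE 0.38, adjusted p = 0.00169). At ZT16 it read 127, 54.0, 107 and 66.3 CPM in WT and 3.40, 5.92 and 4.97 CPM in GRLKO (−4.22, SE 0.37, adjusted p = 0.00281). The difference without WT replicate 2, the other liver with pancreas markers, was −4.40 (adjusted p = 0.00498). At ZT20 WT read 52.5, 51.6, 34.5 and 42.6 CPM and GRLKO 2.35, 3.39 and 1.93 CPM (−4.15, SE 0.23, adjusted p = 0.00076). Neither hour had overlapping groups.

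During the light phase the Eif4ebp3 gap was narrower. At ZT8 it read 13.5, 12.5, 7.46 and 7.57 CPM in WT and 2.54, 5.17, 4.48 and 2.67 CPM in GRLKO, WT higher throughout (log2 fold change −1.47, SE 0.29, adjusted p = 0.0438). That call was lost without WT replicate 1 (0.133), 2 (0.118) or 3 (0.0665) and without GRLKO replicate 1 (0.121), 2 (0.0528), 3 (0.0839) or 4 (0.124). It was also lost with a replicate block (0.129) and with all libraries of the diet in 1 fit (0.069). At ZT0 WT read 21.6, 9.97 and 7.91 CPM and GRLKO 3.83, 2.97 and 4.56 CPM, without overlap (−1.79, adjusted p = 0.121 by edgeR and 0.00144 by DESeq2). At ZT4 the averages were 7.99 and 2.38 CPM, again without overlap (adjusted p = 0.0931 by edgeR and 0.000152 by DESeq2).

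Ddit4 on control diet at ZT12 read 21.5, 9.13, 5.19 and 9.49 CPM in WT and 3.01, 3.11, 4.44 and 2.82 CPM in GRLKO. WT livers were all higher but widely spread, and edgeR did not call the log2 fold change of −1.75 (SE 0.40, adjusted p = 0.0661). DESeq2 gave an adjusted p of 0.000809 for it. With all libraries of the diet in 1 fit edgeR called it (0.00022), and without WT replicate 3 edgeR gave −2.00 (0.0358). The other 7 fits without a library ran from −1.25 (0.0659, without WT replicate 1) to −1.92 (0.0981), none of them called, with adjusted p up to 0.171. At ZT16 Ddit4 read 19.2, 17.5, 10.1 and 18.6 CPM in WT and 7.48, 9.12 and 7.42 CPM in GRLKO, WT higher in each liver (−1.03, adjusted p = 0.0615 by edgeR and 0.00144 by DESeq2). Leaving out WT replicate 3 there gave −1.20 (adjusted p = 0.00519), and leaving out WT replicate 2 with its pancreas markers gave −1.001 (0.148). The other fits without a library at ZT16 gave adjusted p from 0.123 to 0.168. At ZT20 it read 36.2, 18.8, 17.0 and 17.4 CPM in WT and 9.26, 8.98 and 10.5 CPM in GRLKO, without overlap (−1.22, adjusted p = 0.163 by edgeR and 0.00566 by DESeq2). With all libraries of the diet in 1 fit edgeR called that difference.

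With each hour fitted alone, edgeR called no other member between genotypes on control diet at any of the 6 hours. With all libraries of the diet in 1 fit it called 3 members at ZT20, against 1. Over all genes that fit called 387 at ZT20, against 50. Tsc1 at ZT20 averaged 32.0 ± 3.29 CPM in WT and 42.4 ± 2.96 CPM in GRLKO, without overlap (log2 fold change 0.41, adjusted p = 0.156 by edgeR and 0.0427 by DESeq2). Eif4ebp1 at ZT0 averaged 13.5 ± 2.19 and 9.63 ± 0.902 CPM, without overlap (−0.49, adjusted p = 0.227). Sesn2 at ZT16 averaged 5.93 ± 1.70 and 3.89 ± 1.12 CPM, with overlap (−0.60, adjusted p = 0.335), and the value was −0.44 (0.551) without the WT liver with pancreas markers. Without that liver edgeR called no other member than Eif4ebp3 at ZT16. Of the other pathway genes at ZT12, 1 of 50 tested was called, where 2.08% of all genes were: Ulk1 fell from 117 to 89.8 CPM in GRLKO (−0.37, adjusted p = 0.0123). At the other hours edgeR called 0 of 50 to 52, with 3 to 8 at an unadjusted p under 0.05 and 0 by DESeq2. Of all 11582 to 11906 genes tested at those hours, 1152 to 1950 had an unadjusted p under 0.05. Of 7 ATF4 targets tested at ZT12, 1 was called: Vldlr rose from 1.29 to 9.66 CPM in GRLKO (log2 fold change 2.90, adjusted p = 0.0036). Vldlr was also higher at ZT8 (1.33, adjusted p = 0.00632). Hepatocyte markers at ZT12 were lower in 3 of 6 genes (91182 against 75948 CPM summed), and at ZT8 in 1 of 6, while erythrocyte markers were higher in 1 of 5 at ZT0 and at ZT16. The median log2 fold change of the 5 erythrocyte markers was 0.422 at ZT0 and −0.795 at ZT16. At ZT12, 1 of 2 adipocyte markers tested was higher (2.90 against 27.3 CPM summed, Cidec the most abundant), with 85.2 CPM in a single GRLKO liver. Adipocyte markers were also called higher in GRLKO on control diet at ZT0 (1 of 2), ZT4 (1 of 2), ZT8 (2 of 2) and ZT20 (1 of 2), and on restriction at ZT4, ZT8, ZT16 and ZT20 (1 of 1 each). The adipocyte list holds 6 genes, and those not counted here were too low to be tested. Whether these calls come from fat cells was not tested.

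**Figure D2:**
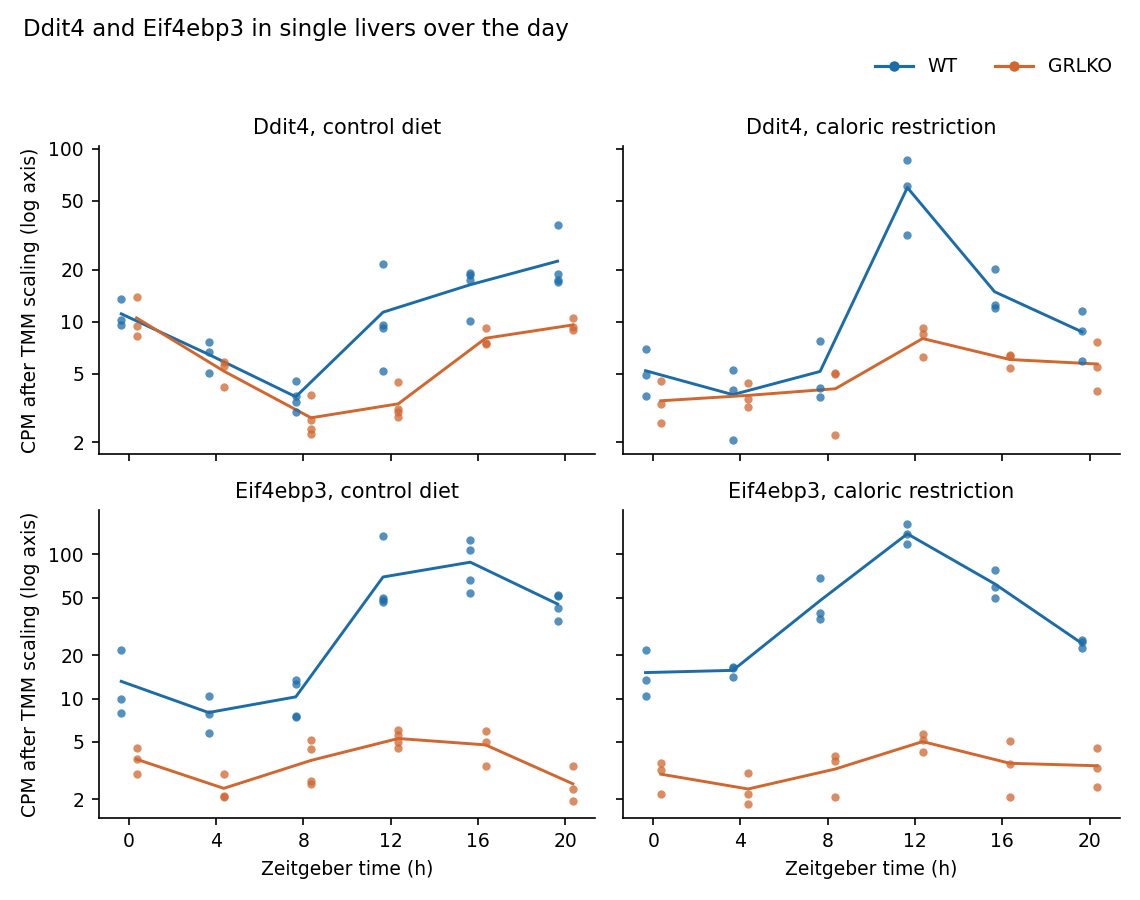
Ddit4 and Eif4ebp3 in single livers over the day on control diet and on caloric restriction, CPM on a log axis against zeitgeber time, with lines joining the means of WT and GRLKO. WT Eif4ebp3 peaks at 88.4 CPM at ZT16 on control diet and at 139 CPM at ZT12 on restriction, while no GRLKO mean exceeds 5.28 CPM.

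Whether the genotype gap differs between diets was tested as an interaction at each hour. By edgeR 0 of 9 members were called at ZT0 (0 at an unadjusted p under 0.05, 0 by DESeq2; 0% of all genes tested called), ZT4 (1 and 0; 0%) and ZT8 (2 and 1; 0.081%). It was also 0 of 9 at ZT12 (0 and 0; 1.01%), ZT16 (2 and 0; 0.234%) and ZT20 (1 and 1; 0%). Among all genes tested, those with an unadjusted p under 0.05 ran from 746 of 12362 at ZT4 to 1742 of 12225 at ZT12. Eif4ebp3 had an interaction of −2.40 at ZT8 (SE 0.48, adjusted p = 0.106), that is a wider gap on restriction, and of 1.34 at ZT20 (SE 0.33, adjusted p = 0.443), a wider gap on control diet. DESeq2 called both (adjusted p = 0.000201 and 0.0392). Its value at ZT12 was −1.05 (adjusted p = 0.35), and −1.61 (0.00716) without the high WT control liver, replicate 4, and its GRLKO namesake. Without replicate 1, 2 or 3 it was −0.98 (0.594), −0.86 (0.716) or −0.88 (0.645). The Ddit4 interaction at ZT12 was −1.14 (SE 0.59, adjusted p = 0.414), with −2.02 (0.131) without replicate 1 and −0.58 (0.864) without replicate 2. That of Sesn1 at ZT8 was −0.50 (adjusted p = 0.249). Among the other pathway genes 2 of 52 were called at ZT12 (1.01% of all genes), Eef2k (1.31, adjusted p = 0.0268) and Eif4e (−0.59, adjusted p = 0.0381).

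Feeding, fasting and the clock all move mTORC1 activity through the day. A joint test over 6 time points asks only whether a gene's level varies with the hour. In restricted WT 8 of 9 members tested were called (64.3% of all genes tested called), in restricted GRLKO 7 of 9 (60.5%), in control WT 8 of 9 (50%) and in control GRLKO 8 of 9 (42%). Tsc2 was not called in any of the 4 series.

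In restricted WT livers the upstream brakes peaked in the light phase or at its end. Ddit4 was highest at ZT12 (59.6 CPM) and lowest at ZT4 (3.78 CPM), a ratio of 15.8 (adjusted p = 2.18e-06). Sesn2 went from 3.65 CPM at ZT16 to 19.5 CPM at ZT12 (ratio 5.36, adjusted p = 2.75e-07). Sesn1 peaked at ZT8 (23.6 CPM, ratio 2.03), as did Tsc1 (61.9 CPM, ratio 2.33) and Deptor (293 CPM, ratio 1.72). All 3 had their lowest mean at ZT16. The 4E-binding proteins had their highest means at ZT12: Eif4ebp3 with 139 CPM (ratio 9.19, adjusted p = 3.41e-07), Eif4ebp1 with 10.04 CPM (ratio 1.68, adjusted p = 0.000996) and Eif4ebp2 with 412 CPM (ratio 1.46, adjusted p = 0.000484). For Eif4ebp2 the means at ZT12 and ZT8 were close (71.3 ± 2.22 and 71.1 ± 3.97 CPM per kb). Those of Eif4ebp1 were also close (4.57 ± 0.417 and 4.41 ± 0.653 CPM per kb).

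GRLKO livers on restriction still varied over the day in 7 members. Sesn2 again peaked at ZT12 (16.5 CPM, ratio 4.81, adjusted p = 2.46e-06). Ddit4 peaked at the same hour but with 7.98 CPM and a ratio of 2.29 (adjusted p = 0.0134). Eif4ebp3 had its highest mean of 5.02 CPM at ZT12 and a ratio of 2.13, and edgeR did not call it (adjusted p = 0.126). Tsc1 kept a ratio of 1.95 (adjusted p = 1.51e-05) and Sesn1 of 1.97 (adjusted p = 0.000204). Deptor had its highest mean at ZT12 in this genotype (298 CPM, ratio 1.48, adjusted p = 0.00118). Its means at ZT4, ZT8 and ZT12 were close (32.7 ± 3.06, 32.5 ± 3.27 and 33.6 ± 2.57 CPM per kb).

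On control diet Ddit4 and Eif4ebp3 had their WT peaks in the dark phase, as did Tsc2 (4.09 CPM at ZT16), which was not called. Ddit4 was highest at ZT20 (22.4 CPM) and lowest at ZT8 (3.67 CPM), a ratio of 6.09 (adjusted p = 0.000106). Eif4ebp3 was highest at ZT16 (88.4 CPM) and lowest at ZT4 (7.99 CPM), a ratio of 11.1 (adjusted p = 2.00e-06). Sesn2 was highest at ZT12 with 8.31 CPM and a ratio of 2.06 (adjusted p = 0.0379), a call lost with no filter (0.0522) or a replicate block (0.0531). Tsc1 peaked at ZT4 (46.5 CPM, ratio 1.65, adjusted p = 0.000233) and Eif4ebp2 at ZT8 (362 CPM, ratio 1.41, adjusted p = 9.47e-05). In control GRLKO livers Ddit4 was highest at ZT0 (10.5 CPM, ratio 3.79, adjusted p = 5.44e-06). Eif4ebp3 ranged from 2.38 to 5.28 CPM in that genotype (ratio 2.22, adjusted p = 0.0147).

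Some of these calls did not survive removal of 1 replicate number, that is of a liver from every hour. On restriction they were WT Deptor, GRLKO Ddit4 and GRLKO Eif4ebp1, with adjusted p up to 0.0591, 0.138 and 0.136. In control WT they were Sesn1 (up to 0.111), Sesn2 (up to 0.23) and Eif4ebp1 (up to 0.329). In control GRLKO they were Sesn1 (up to 0.0684), Eif4ebp1 (up to 0.176), Eif4ebp2 (up to 0.0656), Eif4ebp3 (up to 0.127) and Deptor (up to 0.216).

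A test of genotype by time of day was chosen after these values had been seen. On restriction it called 2 of 9 members (5.34% of all genes tested called), Ddit4 (adjusted p = 0.00698) and Eif4ebp3 (adjusted p = 0.00202). On control diet it called 1 of 9 (0.6%), Eif4ebp3 (adjusted p = 0.00326), while Ddit4 had an adjusted p of 0.224. None of the 3 calls held in every fit without a replicate number: the adjusted p reached 0.213 for Ddit4 and 0.218 for Eif4ebp3 on restriction, and 0.19 for Eif4ebp3 on control diet. Of the other pathway genes edgeR called 0 of 51 on restriction (9 at an unadjusted p under 0.05, 4 by DESeq2) and 0 of 52 on control diet (4 and 0). Among all genes tested, 2661 of 13041 on restriction and 1287 of 12834 on control diet had an unadjusted p under 0.05.

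**Figure D3:**
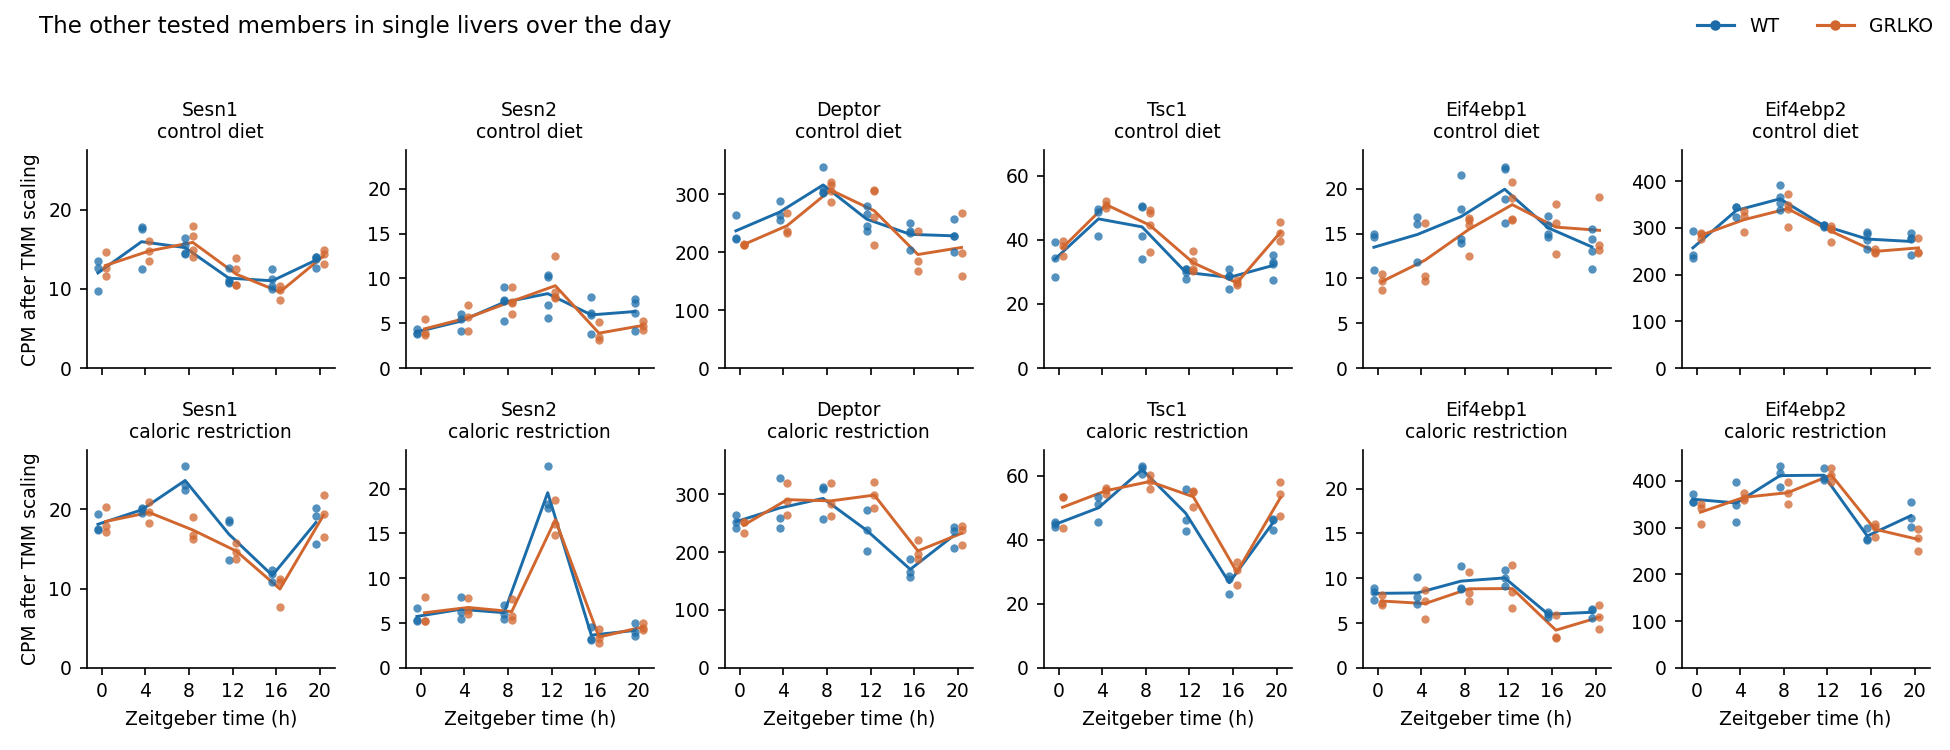
Sesn1, Sesn2, Deptor, Tsc1, Eif4ebp1 and Eif4ebp2 in single livers over the day, CPM against zeitgeber time, control diet above and caloric restriction below, with lines joining the means of WT and GRLKO. Sesn2 at ZT12 on restriction averages 19.5 CPM in WT and 16.5 CPM in GRLKO, and the genotypes lie close together in most panels.

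**Figure D4:**
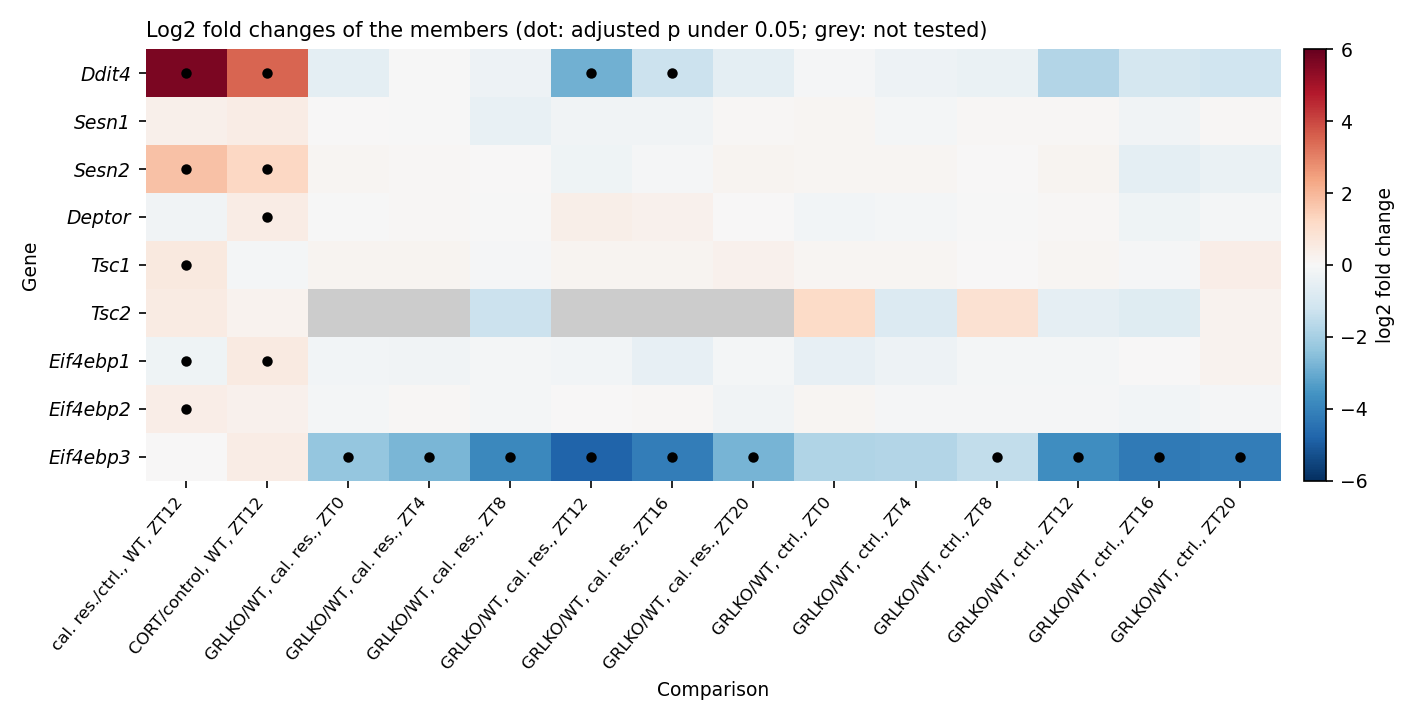
Log2 fold change of each tested member in the diet, corticosterone and genotype comparisons, as colour, with a dot for adjusted p under 0.05 and grey where a gene was not tested. The Eif4ebp3 values are negative in all 12 genotype comparisons, down to −4.79 at ZT12 on restriction, and Ddit4 is 5.66 with diet and 3.51 with corticosterone.

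Profiles over the 12 group means on restriction were compared between members and with 11431 genes, as a description without a test. Ddit4 and Eif4ebp3 correlated at 0.729 on restriction and 0.602 on control diet, Sesn1 and Tsc1 at 0.859 and 0.914, and Deptor and Tsc1 at 0.907 and 0.457. The genes most like Ddit4 were Smcr8 (r 0.983, and 0.23 over the control groups), Aass (0.977 and 0.548) and Sec14l4 (0.961 and 0.941). Most like Eif4ebp3 were Glrx (0.975 and 0.954), Amy1 (0.968 and 0.78) and Tango2 (0.966 and 0.934). Amy1 is an amylase gene like Amy2a5, and without the 2 livers with pancreas markers its values were 0.968 and 0.778. Sesn2 was closest to Umad1 (0.96 and 0.768), Sesn1 to Pip4p1 (0.966 and 0.782), Deptor to Sh3yl1 (0.975 and 0.608) and Tsc1 to Tlcd1 (0.976 and 0.544). Eif4ebp1 was closest to Slc17a5 (0.963 and 0.734) and Eif4ebp2 to Pom121 (0.965 and 0.333).

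Eif4ebp3 lies close behind a larger gene, Ankhd1. Its gene model (ENSMUSG00000090264, 0.744 kb of exons, GENCODE M21) overlaps the annotated readthrough gene AC115631.1, which the tables do not list. How reads shared with that transcript were assigned cannot be seen, so the Eif4ebp3 levels given here, per kb as well, carry that uncertainty. Ankhd1, looked up after the values were seen, averaged 73.0 ± 3.28 CPM in restricted WT at ZT12 and 67.3 ± 3.86 CPM in GRLKO (log2 fold change −0.12, adjusted p = 0.372). On control diet at ZT12 it averaged 46.1 and 45.4 CPM (−0.02, adjusted p = 0.961). Ankhd1 was not called in any of the 12 genotype comparisons, and with diet it rose from 37.5 to 50.7 CPM (0.43, adjusted p = 0.00299).

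Promoters were read as the 250 bases before the transcription start in the RefSeq-based GRCm38.p6 set, which holds no entry for Eif4ebp1, Eif4ebp3 or Deptor. The motifs, counted on both strands, were the single GR site AGAACA (16.1% of all 32851 windows), the full GR palindrome AGAACA followed after any 3 bases by TGTTCT (0.00913%) and the forkhead motif GTAAACA (3.17%). The others were the C/EBP-ATF core TGATGNAA (3.45%), the E-box CACGTG (6.02%), the hypoxia core ACGTG (16.6%) and the CCAAT box ATTGG (33.8%). AGAACA is part of the full palindrome and CACGTG contains ACGTG, so those counts overlap. Ddit4 has 2 CCAAT boxes, beginning 170 and 137 bases before the start, and 1 hypoxia core at 187. Sesn2 has 2 CCAAT boxes at 157 and 93. Sesn1 has 1 CCAAT box in each of 2 promoters, at 197 and 91, Sesn3 has 4, and Eif4ebp2 has 1 hypoxia core at 182. No window of the 7 members with an entry matched AGAACA, the palindrome, the forkhead motif, the C/EBP-ATF core or the E-box, and sites further away were not analysed here. A match describes the sequence and does not show that a factor binds. Both sequences below belong to brakes that rose with diet and with corticosterone. They are written 5' to 3' on the minus strand, with CCAAT boxes in capitals: Ddit4 at chr10:59951771-59952020 and Sesn2 at chr4:132510457-132510706, GRCm38.p6.

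Ddit4: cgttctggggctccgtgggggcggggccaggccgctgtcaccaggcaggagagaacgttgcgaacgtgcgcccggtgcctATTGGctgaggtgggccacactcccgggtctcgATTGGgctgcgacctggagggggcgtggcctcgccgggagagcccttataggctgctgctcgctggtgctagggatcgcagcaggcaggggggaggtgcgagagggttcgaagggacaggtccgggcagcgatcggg

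Sesn2: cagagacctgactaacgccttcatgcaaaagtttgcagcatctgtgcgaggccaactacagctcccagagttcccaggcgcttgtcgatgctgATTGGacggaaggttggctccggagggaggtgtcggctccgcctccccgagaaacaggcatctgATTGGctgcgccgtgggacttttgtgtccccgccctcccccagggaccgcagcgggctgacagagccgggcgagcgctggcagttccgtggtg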

How the data were processed

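RNA-seq was measured in 90 mouse livers. The authors pseudo-aligned the reads and deposited gene tables of estimated counts, which were rounded to whole numbers. Totals per library had medians of 13427104 (series, control diet), 17386700.5 (series, restriction), 37407547 (diet experiment) and 14431388.5 (corticosterone experiment). Groups came from the sample labels. In R 4.3.3, edgeR 4.0.16 (limma 3.58.1) was run for each comparison: filterByExpr with a minimum count of 10, TMM scaling, quasi-likelihood F tests, and Benjamini-Hochberg adjustment over all genes tested at 0.05. Adjusted p-values are edgeR's unless DESeq2 is named, values after ± are standard deviations, SE is the standard error of a log2 fold change, and profiles were compared as log2 CPM with 2 as prior count. Time of day was tested jointly over 6 time points. Alternatives were DESeq2 1.42.0, its size factors, no filter, a replicate block, all libraries of a diet in 1 fit, a cosine fit with a period of 24 h, and each library left out. The tests were tried on simulated data, where genes changed by a factor of 2 were recovered in 88% (diet), 81% (genotype on restriction at ZT12), 47% (genotype by diet at ZT12), 92% (time of day in restricted WT) and 49% (genotype by time of day on restriction). The simulation gave every gene the same dispersion and left out genes with very low or very high counts. In the tests over time points only the last time point was changed. Livers differed more in some members, such as Ddit4 in restricted WT at ZT12 (59.6 ± 27.3 CPM), and recovery at such a spread was not tested. The members and gene lists were chosen with earlier results known. Of the gene IDs 410 had no symbol and stayed in the tests by ID.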

Additional observations from a re-analysis of the deposited data

Results flagged for a closer look

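The groups of 4 livers were searched for a liver lying apart from the other 3 by Dixon's ratio, the gap to the nearest liver over the range. Of 54 pairs of member and group examined, 6 passed, where about 1 in 20 would by chance. Eif4ebp3 in control WT at ZT12 had the highest ratio, 0.968 (134 CPM against 49.9, 47.1 and 48.5). Ddit4 in control WT at ZT20 gave 0.907 (36.2 CPM against 18.8, 17.0 and 17.4), and Sesn2 in control GRLKO at ZT12 gave 0.859 (12.6 CPM against 7.98, 7.78 and 8.45). Eif4ebp2 in that GRLKO group had a low liver with a ratio of 0.85 (270 CPM against 303, 298 and 299). Tsc2 in control WT at ZT16 gave 0.843 (8.37 CPM against 2.81, 3.09 and 2.10), and Sesn1 in control WT at ZT12 gave 0.836 (12.6 CPM against 10.9, 10.8 and 11.1). All these livers were kept.

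Genotype by time of day was called in some of the series. The test, chosen after the values were seen, gave adjusted p-values of 0.00698 for Ddit4 on restriction, 0.00202 for Eif4ebp3 on restriction and 0.00326 for Eif4ebp3 on control diet. Ddit4 on control diet had 0.224. None of the 3 calls held in every fit without a replicate number, with adjusted p up to 0.213, 0.218 and 0.19 in the same order.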

How the results depend on the processing

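Of 254 recomputed counts of called members, 187 were equal to the value given and 67 were not. In 49 of them the change was over 1.5 times, or from or to 0. Scaling by size factors and the cosine fit left every member count as it was. With no expression filter the count was 3 with corticosterone and 6 for time of day in control WT. The ZT12 livers of the series gave 6 with diet.

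With DESeq2 the count was 2 on restriction at ZT8 and 3 at ZT12. On control diet it was 1 at ZT0 and ZT4, 2 at ZT12 and ZT16, and 3 at ZT20. For genotype by diet it was 1 at ZT8 and at ZT20. With all libraries of the diet in 1 fit it was 2 on restriction at ZT8 and 3 at ZT12, and on control diet 1 at ZT0, 0 at ZT8, 2 at ZT12 and 3 at ZT20.

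Leaving out 1 library gave 4 to 5 members with diet, 1 to 4 with corticosterone, 0 to 0 on restriction at ZT0 and 1 to 2 at ZT16. On control diet it gave 0 to 1 at ZT8 and 1 to 2 at ZT12 and ZT16. Leaving out a replicate number gave 0 to 1 for genotype by diet at ZT12. For time of day it gave 7 to 8 in restricted WT, 5 to 6 in restricted GRLKO, 5 to 7 in control WT and 4 to 8 in control GRLKO, and for genotype by time of day 0 to 1 on either diet.

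No pairing of livers by replicate number was seen: livers of the same number did not all correlate above 0.1 in any of 14 comparisons (0 of 14). With so few livers per group this cannot exclude a shared cohort or batch. A replicate block gave 6 members with diet, 2 with corticosterone, 0 on restriction at ZT0, 0 on control diet at ZT8 and 6 for time of day in control WT. The calls lost with the block were Eif4ebp1 and Deptor with corticosterone, Eif4ebp3 in both genotype comparisons, and Sesn2 and Eif4ebp1 for time of day. Over all genes the block called 526 with corticosterone against 935, 849 on restriction at ZT12 against 1795, and 95 on control diet at ZT12 against 238.

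Over all genes, DESeq2 called 569 on control diet at ZT12 (edgeR 238), 473 for genotype by diet at ZT12 (123, block 5) and 1314 for genotype by time of day on restriction (696). For genotype by diet it called 168 at ZT0, 37 at ZT4, 126 at ZT8, 186 at ZT16 and 48 at ZT20. On restriction DESeq2 called 434 at ZT0, 440 at ZT4, 697 at ZT8, 2078 at ZT12, 917 at ZT16 and 686 at ZT20. On control diet its other counts were 407 at ZT0, 195 at ZT4, 369 at ZT8, 634 at ZT16 and 297 at ZT20. With all libraries of a diet in 1 fit the counts on restriction were 724 at ZT8 and 2805 at ZT12. On control diet they were 630 at ZT0, 36 at ZT8, 537 at ZT12 and 387 at ZT20. The cause was not tested. Without 1 library the all-gene counts ran from 206 to 1008 with corticosterone (935), and on restriction from 1 to 103 at ZT0 (61), 13 to 127 at ZT4 (83), 56 to 315 at ZT8 (308), 899 to 1329 at ZT12 (1795), 234 to 346 at ZT16 (541) and 16 to 194 at ZT20 (178). On control diet they ran from 3 to 81 at ZT0 (63), 1 to 13 at ZT4 (23), 56 to 160 at ZT8 (166), 137 to 199 at ZT12 (238), 84 to 183 at ZT16 (232) and 12 to 48 at ZT20 (50). Without a replicate number they ran from 2 to 79 for genotype by diet at ZT12 (123), 3 to 11 at ZT8 (10) and 6 to 20 at ZT16 (29). For genotype by time of day they ran from 89 to 296 on restriction (696) and 5 to 48 on control diet (77), and for time of day from 4984 to 5729 in restricted WT (8123), 4413 to 5894 in restricted GRLKO (7713), 4064 to 4906 in control WT (6244) and 2699 to 4761 in control GRLKO (5231). The shares of all genes called given beside the member counts move with them. No scaling moved the median log2 fold change of all genes by over 0.1.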
